A study of Homo sapiens with 25 samples.

Results

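The genes described here are 38 members of the endoplasmic reticulum (ER) quality-control system: chaperones, enzymes of ER-associated degradation (ERAD), parts of the import and export machinery, and the sensors and transcription factors of the unfolded protein response. The members were listed by symbol and matched through Ensembl identifiers to the expression table, which holds 60179 genes. All 38 were found. A mean of at least 1 TPM (a gene's share of all transcripts, scaled per library) over the 9 RNA libraries was reached by 37, which were tested. DERL3, an ERAD channel gene, was listed at 0 in all 9 libraries and was not tested. By role, the list holds 8 HSP70 and HSP90 chaperones and co-chaperones, 8 lectin chaperones and disulfide enzymes, 10 ERAD genes, 6 translocation and export genes, and 6 sensors, transcription factors and regulators.

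All libraries came from HEC-1A, an established human endometrial adenocarcinoma line with the genotype given as WT. RNA-seq covered 3 untreated libraries, 3 libraries after 24 h and 3 after 72 h of 20 µM THC (tetrahydrocannabinol, a cannabinoid); ATAC-seq, which maps open chromatin, covered the same groups with 3 libraries each. CUT&RUN for H3K4me3, a histone mark of active promoters, covered 3 untreated libraries and 3 libraries with 20 µM THC, for which the labels state no duration. The untreated libraries carry no time and no vehicle is named, and the 24 h and 72 h comparisons share the same untreated libraries. The replicates are labelled biological, but nothing says that they were separate cultures, so p-values measure how far these libraries spread, and that spread may be technical only. TPM keeps no read depth, and in a bulk library a change in a gene's TPM, in the number of cells expressing it and in the RNA per cell cannot be told apart.

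The defining markers of the labelled cell type were present. The summed level of 7 epithelial markers was 3015 ± 70.1 TPM untreated (SD, n = 3 libraries, as for every mean below), 5033 ± 102 at 24 h and 3738 ± 122 at 72 h. The summed level of 6 stromal markers lay between 2.96 and 3.21 TPM untreated and between 0.612 and 1.32 with THC, with LUM at 0 in every library. The 6 immune markers summed to between 0.055 and 0.249 TPM untreated and between 0.394 and 0.886 TPM with THC, and the 4 endothelial markers to at most 0.357. The part of these marker shifts in the members' changes was not tested.

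The ER folds secreted and membrane proteins, and unfolded protein in its lumen is read by the sensors IRE1 (gene ERN1), ATF6 and PERK (gene EIF2AK3). IRE1 splices XBP1 mRNA into the message of an active transcription factor, ATF6 is cut in the Golgi to release another, and PERK slows translation through the factor eIF2 and raises ATF4 and CHOP (gene DDIT3). XBP1 and ATF6 act on genes for chaperones and for ERAD, which passes misfolded proteins back to the cytosol for the proteasome.

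Most members stood higher with THC, and more of them at 72 h than at 24 h, while a minority led by the mannosidase gene EDEM3 and the ER membrane protein gene WFS1 stood lower. With limma on log2(TPM + 1) and a Benjamini-Hochberg adjusted p under 0.05 over the 13753 tested genes, 21 of 37 members rose and 13 fell at 24 h, where 25% of all tested genes rose and 51.7% fell. At 72 h, 28 of 37 rose and 5 fell, where 40.1% of all tested genes rose and 33% fell. The members' median log2 fold change was 0.21 at 24 h and 0.56 at 72 h, against -0.23 and 0.06 over all tested genes. A change of at least 2-fold upward was reached by 7 members at 24 h and 12 at 72 h, and a change of at least 2-fold downward by 2 and 0. Of the 13753 tested genes, 726 at 24 h and 1123 at 72 h reached it upward, and 1464 and 764 downward. The 3 libraries of the groups did not overlap for 35 members at 24 h (78.6% of all tested genes) and for 36 at 72 h (76.6%).

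Set directly against each other, the 72 h libraries exceeded the 24 h libraries for 28 of 37 members (54.9% of all tested genes) and fell below them for 1 (17.8%), and the groups did not overlap for 32 (73.9%). This count depends on the scale. Centring each library on the median of its tested genes shifted every log2 fold change by 0.22 at 24 h, by -0.09 at 72 h and by -0.30 for 72 h against 24 h, and left 24 members higher and 9 lower, 28 higher and 8 lower, and 16 higher and 9 lower. Over all tested genes the share of calls that were upward went from 32.6% to 49.1% at 24 h, from 54.8% to 47.3% at 72 h and from 75.5% to 44.5% for 72 h against 24 h. With centring, 4954 of the 13753 tested genes rose and 5128 fell at 24 h, and 4790 rose and 5347 fell at 72 h. For 72 h against 24 h, 4176 were higher and 5217 lower. These are the counts to set beside the centred counts of groups and lists below. After centring, the sign turned for DNAJB11, PDIA3, EDEM2 and DERL2 at 24 h, for no member at 72 h, and for 12 members for 72 h against 24 h, each of which is named below where its times are compared.

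**Figure D1:**
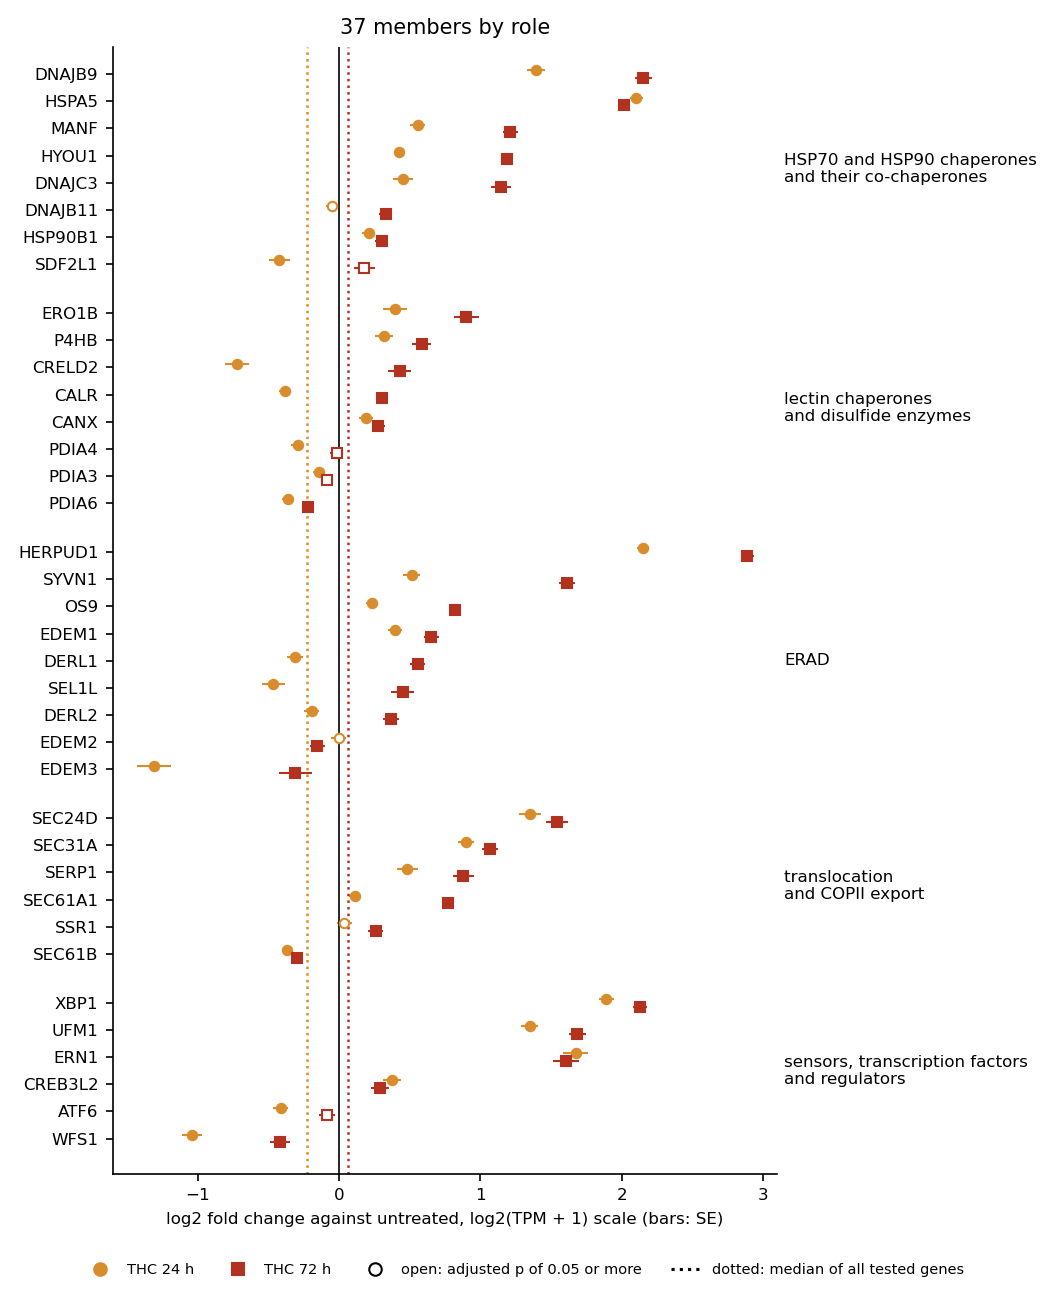
Log2 fold change against untreated on the log2(TPM + 1) scale (x axis) for 37 members grouped by role (y axis), at 24 h (circles) and 72 h (squares), with SE bars; open symbols did not pass the test and dotted lines are the medians of all tested genes, -0.23 and 0.06. HERPUD1 lies farthest to the right at 72 h (2.89) and EDEM3 farthest to the left at 24 h (-1.31).

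The promoters of the members are shown for the ER stress element (ERSE: CCAAT, 9 bases of any kind, then CCACG), which is known to be bound by ATF6 with the factor NF-Y, and for the shorter ERSE-II (ATTGG, 1 base, then CCACG). Sequences were taken from RefSeq (GRCh38.p14) and run from 250 bases before to 50 after each start; 34 of 38 members matched, with 45 promoters. HSPA5, HYOU1, HERPUD1 and XBP1 are printed because they hold an exact match and rose at least 2-fold at 72 h. HSP90B1 and CALR are printed because they hold the same element and rose little or fell at 24 h. Each sequence is written 5′ to 3′ on the gene's own strand, with the bases of every matched motif in capitals. Where the match is on the opposite strand the capitals read as its reverse complement. Not all capitals are ERSE or ERSE-II. The first capitals of HYOU1 hold the UPRE core, which overlaps an ERSE-II, and those of HERPUD1 are a C/EBP-ATF composite element. Both motifs are described below. The windows are HSPA5 (ENSG00000044574.8) at chr9:125241373-125241493 (minus strand), HSP90B1 (ENSG00000166598.15) at chr12:103930200-103930350 (plus), HYOU1 (ENSG00000149428.19) at chr11:119057265-119057405 (minus), HERPUD1 (ENSG00000051108.15) at chr16:56931952-56932047 (plus), CALR (ENSG00000179218.13) at chr19:12938374-12938414 (plus) and XBP1 (ENSG00000100219.16) at chr22:28800594-28800629 (minus). All lie upstream of the start site.
HSPA5: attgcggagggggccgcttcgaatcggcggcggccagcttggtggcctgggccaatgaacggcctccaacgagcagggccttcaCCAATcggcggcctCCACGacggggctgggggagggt
HSP90B1: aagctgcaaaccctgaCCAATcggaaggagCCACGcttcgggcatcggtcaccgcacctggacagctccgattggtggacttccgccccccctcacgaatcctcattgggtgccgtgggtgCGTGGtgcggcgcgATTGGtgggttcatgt
HYOU1: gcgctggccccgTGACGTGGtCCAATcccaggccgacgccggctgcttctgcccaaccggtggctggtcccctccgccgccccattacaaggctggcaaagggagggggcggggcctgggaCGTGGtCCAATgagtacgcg
HERPUD1: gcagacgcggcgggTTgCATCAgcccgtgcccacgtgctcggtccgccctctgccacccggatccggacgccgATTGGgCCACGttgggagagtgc
CALR: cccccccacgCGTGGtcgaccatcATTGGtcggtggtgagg
XBP1: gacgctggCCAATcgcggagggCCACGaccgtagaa

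An exact ERSE on either strand was found in 11 of 45 member promoters (24.4%) and in 27 of 34961 promoters of the whole table (0.0772%). By gene, this was 9 of 34 members, against 0.0919% of all genes, because starts of CANX that share 1 site are counted separately among the 11. The difference in share was not tested. The 9 genes were HSPA5, HSP90B1, CALR, CANX, PDIA6, ERO1B, CRELD2, SERP1 and XBP1, with 2 copies in HSP90B1. ERSE-II was found at 3 members, HERPUD1, HYOU1 and SDF2L1, with 2 copies in HYOU1, and in 0.0543% of all promoters. The core of the XBP1-bound element UPRE, TGACGTGG, was found in HYOU1, where it overlaps the ERSE-II farther from the start, and in 0.732% of all promoters. The C/EBP-ATF composite element TGATGNAAN, of the kind that CHOP and ATF4 bind, was found in HERPUD1 before the start and in CREB3L2 after it, and in 3.61% of all promoters. These matches are letters in a window of 300 bases and show no binding.

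The 12 members with an ERSE or ERSE-II did not move as a block. At 24 h, 8 of them rose and 4 fell, with log2 fold changes from -0.72 (CRELD2) to 2.15 (HERPUD1) and a median of 0.30. The 22 members with a promoter but without either motif had 12 up and 7 down and a median of 0.17. At 72 h the 12 had 10 up and 1 down with a median of 0.65, and the 22 had 16 up and 4 down with a median of 0.52. Over all tested genes, the shares up and down were 25% and 51.7% at 24 h and 40.1% and 33% at 72 h. The difference between the 12 and the 22 members was not tested.

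**Figure D2:**
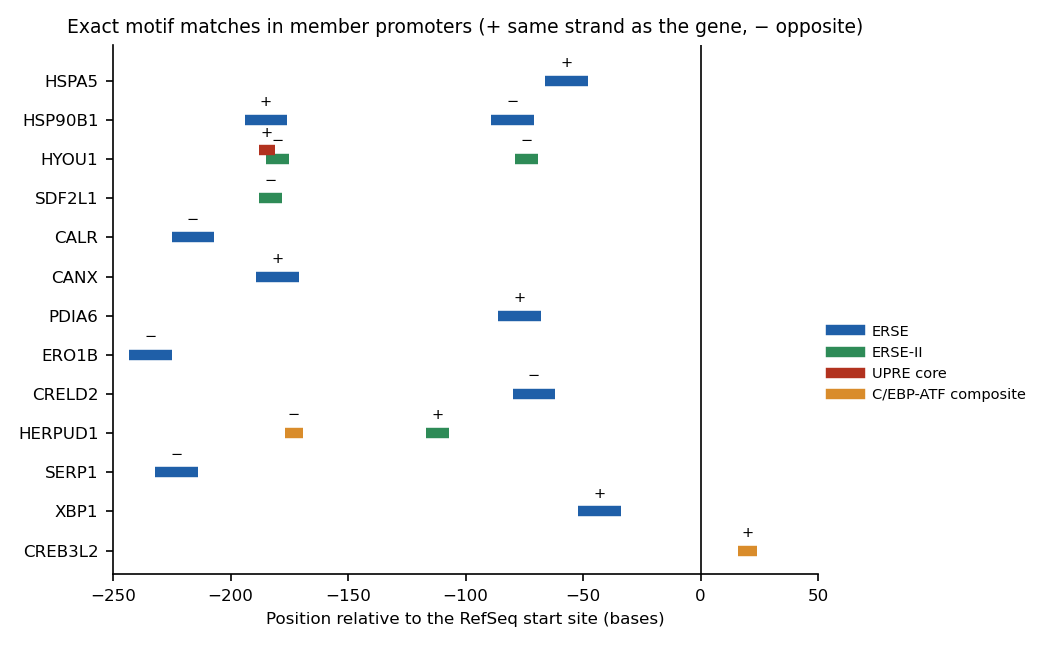
Position of each exact motif match relative to the RefSeq start site in bases (x axis) for the 13 members with a match (y axis), with + for the strand of the gene and a minus sign for the opposite strand; CANX is drawn from the farthest downstream of its starts. The ERSE of HSPA5 lies 66 to 48 bases before the start, that of XBP1 52 to 34 bases before it, and that of CALR 225 to 207 bases before it.

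Among the HSP70 and HSP90 chaperones and their co-chaperones, HSPA5 gave the largest part of the gain in TPM and DNAJB9 the largest fold at 72 h. At 24 h, 6 of 8 rose and 1 fell (75% and 12.5%, against 25% and 51.7% of all tested genes). At 72 h, 7 rose and 0 fell (87.5% and 0%, against 40.1% and 33%). The median log2 fold changes were 0.44 and 1.17. HSPA5 encodes BiP, the HSP70 of the ER lumen, which also holds the sensors inactive. Its level was 216, 225 and 210.1 TPM untreated, 928, 907 and 975 TPM at 24 h, and 864, 906 and 867 TPM at 72 h. Every treated library exceeded every untreated one about 4-fold, by 4.32 and 4.05 between the means, and the 24 h values lay just above the 72 h values. The log2 fold changes were 2.11 ± 0.04 (SE; limma adjusted p = 2.01e-10) and 2.01 ± 0.04 (adjusted p = 1.75e-10). Between the 2 times HSPA5 differed by -0.09 (adjusted p = 0.0799), which did not pass. It was called lower after centring (-0.40, adjusted p = 1.8e-05) and after rescaling without mitochondrially encoded genes (-0.12, adjusted p = 0.0245).

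DNAJB9, a J-domain co-chaperone of BiP, started low and kept climbing. It stood at 5.86, 6.67 and 5.92 TPM untreated, 16.9, 17.97 and 18.5 TPM at 24 h, and 30.0, 31.8 and 30.6 TPM at 72 h. The 3 groups did not overlap, and the 72 h mean was 5.01 times the untreated mean (log2 fold change 2.15 ± 0.06, limma adjusted p = 1.3e-09). HYOU1, a large HSP70 relative that exchanges the nucleotide of BiP, stood at 76.4, 81.3 and 78.9 TPM untreated, 106, 107 and 105 TPM at 24 h, and 179.6, 178 and 186 TPM at 72 h. DNAJC3, a co-chaperone that also inhibits PERK, and MANF, a luminal and secreted factor that binds BiP, took the same course. DNAJC3 went from 10.5 ± 1.04 to 14.7 ± 0.846 and 24.4 ± 0.165 TPM, and MANF from 211 ± 12.4 to 310.4 ± 18.4 and 489 ± 5.34 TPM. For HYOU1, DNAJC3 and MANF the 24 h rise was 1.35-fold to 1.47-fold between means and the 72 h rise 2.3-fold to 2.32-fold, and all 3 were higher at 72 h than at 24 h before and after centring.

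The HSP90 of the ER moved little. HSP90B1, which encodes GRP94, went from 587 ± 15.7 to 679 ± 29.2 and 723 ± 32.4 TPM (log2 fold changes 0.21 and 0.30, limma adjusted p = 0.00227 and 0.000219). Its value for 72 h against 24 h was 0.09 and did not pass (adjusted p = 0.106), and it was -0.21 after centring. The J-domain protein gene DNAJB11 was at 83.7 ± 0.970 TPM untreated and 80.8 ± 1.90 TPM at 24 h, which did not pass the test and had the other sign after centring (0.17), and rose to 106 ± 5.13 TPM at 72 h. SDF2L1, which forms a complex with DNAJB11 and BiP, fell to 21.1 ± 2.27 TPM at 24 h from 28.6 ± 1.71 TPM and was at 32.4 ± 0.968 TPM at 72 h, where it just missed the threshold (adjusted p = 0.054).

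The lectin chaperones and disulfide enzymes, which retain glycoproteins and form disulfide bonds, had 3 of 8 up and 5 down at 24 h. These are 37.5% and 62.5%, against 25% and 51.7% of all tested genes. At 72 h, 5 were up and 1 down (62.5% and 12.5%, against 40.1% and 33%). Their median log2 fold changes were -0.22 and 0.29 against -0.23 and 0.06 over all tested genes. After centring, 3 rose and 3 fell at 24 h and 5 rose and 3 fell at 72 h. CALR and CANX, the soluble and the membrane-bound lectin chaperone, parted at 24 h. CALR stood at 788, 777 and 720.1 TPM untreated, 568, 587 and 591 TPM at 24 h, and 955, 927 and 931 TPM at 72 h, so that the 24 h libraries were the lowest and the 72 h libraries the highest without overlap. Its log2 fold changes were -0.39 ± 0.04 (limma adjusted p = 1.31e-05) and 0.30 ± 0.04 (adjusted p = 9.41e-05), and both signs held after centring. CANX went from 758 ± 31.4 to 865 ± 22.2 and 919 ± 43.9 TPM and rose at both times, while its value for 72 h against 24 h was 0.09 (adjusted p = 0.12) and -0.22 after centring.

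CRELD2, a disulfide isomerase-like protein, had the widest swing of the group. Its level was 30.3, 33.7 and 31.1 TPM untreated, 20.7, 16.7 and 19.4 TPM at 24 h, and 46.0, 39.7 and 43.5 TPM at 72 h. The groups did not overlap, and the fold changes between means were 0.596 at 24 h and 1.36 at 72 h (limma adjusted p = 2.14e-05 and 0.000974). The protein disulfide isomerases did not move as one. PDIA6 fell at both times, from 311 ± 6.35 to 242 ± 9.29 and 266 ± 4.44 TPM. PDIA4 fell to 109 ± 3.05 TPM at 24 h from 134 ± 5.96 TPM, a call lost after centring, and was at 132 ± 3.55 TPM at 72 h (adjusted p = 0.763). PDIA3, the partner of the lectin chaperones, fell from 480.4 ± 6.67 to 435 ± 15.5 TPM at 24 h with its sign turned after centring (0.08), and was at 452 ± 17.4 TPM at 72 h (adjusted p = 0.0789). At 72 h both were called lower after centring (PDIA3 -0.18, adjusted p = 0.00342; PDIA4 -0.10, adjusted p = 0.0357) and after rescaling without mitochondrially encoded genes (adjusted p = 0.00271 and 0.0457). P4HB, the founding isomerase of the family, rose from 598 ± 4.20 to 749 ± 73.5 and 897 ± 37.0 TPM. ERO1B, an oxidase that recharges these enzymes, rose from 5.13 ± 0.132 to 7.08 ± 0.644 and 10.5 ± 1.18 TPM. For PDIA3, PDIA4, PDIA6 and P4HB, 72 h lay above 24 h on the deposited scale (called for all but PDIA3) and below it after centring (called for PDIA3 and PDIA6).

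The ERAD genes had 4 of 9 tested members up and 4 down at 24 h (44.4% each, against 25% and 51.7% of all tested genes). At 72 h, 7 were up and 2 down (77.8% and 22.2%, against 40.1% and 33%). The median log2 fold changes were 0.00 and 0.56. After centring, 5 rose and 2 fell at 24 h, and the 72 h counts were the same. HERPUD1, an ER membrane protein that organises the retrotranslocation complex, had the largest rise of all 37 members at both times. It stood at 39.1, 40.1 and 39.1 TPM untreated, 169, 185 and 182 TPM at 24 h, and 289.5, 299 and 307 TPM at 72 h. The 3 groups were far apart, with 4.53-fold and 7.57-fold rises between means and log2 fold changes of 2.15 ± 0.04 (limma adjusted p = 2.21e-10) and 2.89 ± 0.04 (adjusted p = 3.77e-11). At 72 h it ranked 35 of the 13753 tested genes by log2 fold change. This is the member whose promoter above holds both an ERSE-II and a C/EBP-ATF composite element.

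SYVN1 and SEL1L encode the ubiquitin ligase HRD1 and its partner subunit, and they differed at 24 h. SYVN1 stood at 25.7, 29.4 and 28.3 TPM untreated, 40.2, 39.5 and 40.4 TPM at 24 h, and 84.2, 84.2 and 92.5 TPM at 72 h, a 3.13-fold rise between the untreated and 72 h means. Its log2 difference was 0.51 by 24 h and 1.10 from 24 h to 72 h, and 0.73 and 0.79 after centring. SEL1L stood at 28.7, 32.1 and 26.2 TPM untreated, 20.8, 21.9 and 19.3 TPM at 24 h, and 40.7, 41.5 and 37.2 TPM at 72 h. So SEL1L was lowest at 24 h and highest at 72 h, with log2 fold changes of -0.47 ± 0.08 (limma adjusted p = 0.000345) and 0.45 ± 0.08 (adjusted p = 0.000486). The channel proteins of the derlin family did likewise. DERL1 went from 62.7 ± 4.06 to 50.3 ± 0.460 and then 92.6 ± 4.51 TPM, and DERL2 from 59.2 ± 0.450 to 51.7 ± 2.13 and then 76.8 ± 4.86 TPM. The 24 h fall was a call for both on the deposited scale, but after centring the DERL1 value was -0.09 (adjusted p = 0.125) and the DERL2 value 0.02 (adjusted p = 0.715). The 72 h rise of SYVN1, SEL1L, DERL1 and DERL2 passed on both scales.

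The 3 EDEM genes, which encode mannosidase-like proteins that mark glycoproteins for disposal, went different ways. EDEM1 rose from 36.0 ± 2.06 to 47.6 ± 0.836 and 57.2 ± 1.85 TPM, with its 72 h value above its 24 h value on the deposited scale and not after centring (-0.04, adjusted p = 0.356). EDEM3 stood at 10.9, 13.7 and 9.86 TPM untreated, 3.63, 4.62 and 3.77 TPM at 24 h, and 8.50, 9.73 and 8.77 TPM at 72 h. Its 24 h libraries lay 2.86-fold below the untreated mean (log2 fold change -1.31 ± 0.12, limma adjusted p = 3.17e-06), the largest fall of the members. Its 72 h fall (-0.31, adjusted p = 0.0362) was lost without untreated replicate 1 (-0.34, adjusted p = 0.0539), untreated replicate 2 (-0.19, adjusted p = 0.139), 72 h replicate 1 (-0.27, adjusted p = 0.1) or 72 h replicate 3 (-0.29, adjusted p = 0.088). EDEM2 was at 27.2 ± 1.13, 27.2 ± 1.22 and 24.3 ± 0.771 TPM, the one member called lower at 72 h than at 24 h (-0.15, adjusted p = 0.0262). Its calls at 72 h, against either group, each failed in 4 of the fits that left out 1 library, with adjusted p up to 0.0926. OS9, a lectin that delivers clients to HRD1, rose from 78.4 ± 1.22 to 92.4 ± 3.47 and 139 ± 3.09 TPM.

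**Figure D3:**
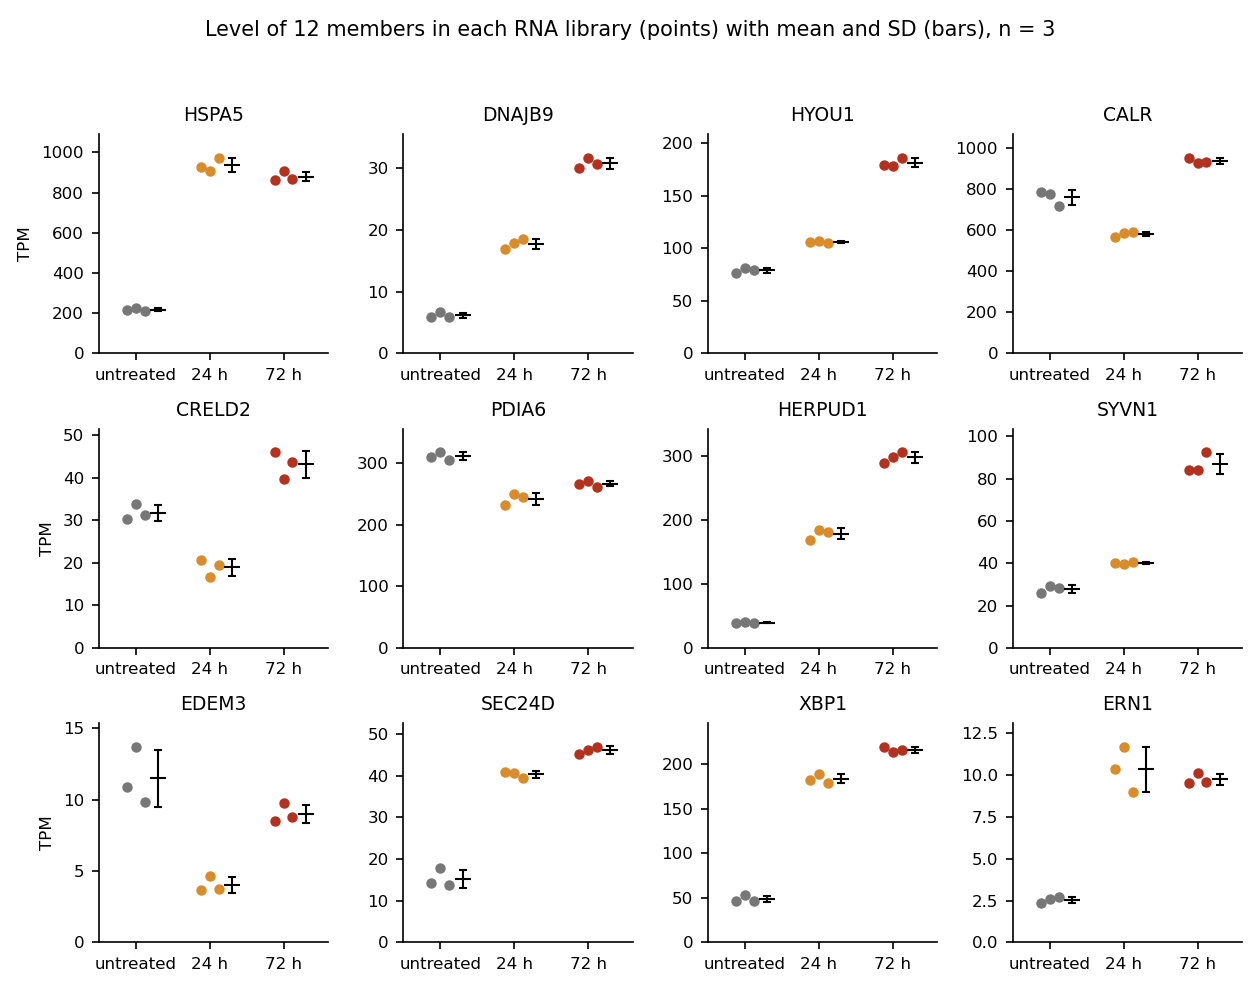
TPM of 12 members in each of 9 RNA libraries (points; y axis from 0) by group (x axis), with the mean and SD of 3 libraries beside them. HERPUD1 and SYVN1 step up at both times, HSPA5 and ERN1 are near their highest level at 24 h, and CALR and CRELD2 are lowest at 24 h and highest at 72 h.

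Of the translocation and export genes, 4 of 6 rose and 1 fell at 24 h (66.7% and 16.7%, against 25% and 51.7% of all tested genes). At 72 h, 5 rose and 1 fell (83.3% and 16.7%, against 40.1% and 33%). The median log2 fold changes were 0.30 and 0.83. The COPII coat genes among these members, SEC24D and SEC31A, rose most. SEC24D, which picks cargo into COPII vesicles, stood at 14.3, 17.7 and 13.9 TPM untreated, 40.9, 40.5 and 39.5 TPM at 24 h, and 45.2, 46.2 and 47.0 TPM at 72 h. The treated libraries were all above the untreated ones, 2.64-fold and 3.02-fold between means (log2 fold changes 1.35 ± 0.08 and 1.54 ± 0.08, limma adjusted p = 1.31e-07 and 5.77e-08). SEC31A, of the outer coat, went from 55.5 ± 2.52 to 104 ± 7.59 and 117 ± 3.07 TPM. SERP1, which protects membrane proteins during translocation, went from 66.6 ± 4.01 to 93.4 ± 1.87 and 124 ± 13.1 TPM.

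Subunits of the translocation channel parted. SEC61A1, the pore subunit, stood at 174, 187 and 174 TPM untreated, 190.1, 192 and 194 TPM at 24 h, and 302, 308 and 304 TPM at 72 h. Its 24 h rise was small (0.11, limma adjusted p = 0.0249). It was lost after rescaling without mitochondrially encoded genes (0.049, adjusted p = 0.254), without the variance trend (adjusted p = 0.0567) and in 4 of the 9 fits that left out 1 library (untreated 1, untreated 3, 24 h replicate 2 or 24 h replicate 3, with adjusted p from 0.0536 to 0.0901), while the 72 h rise was 0.77 ± 0.04 (adjusted p = 5.16e-08). SEC61B, a small subunit of the same channel, was instead lower, at 276, 282 and 268 TPM untreated, 218, 207 and 213 TPM at 24 h, and 226, 224 and 221 TPM at 72 h. SEC61B, PDIA6, WFS1 and EDEM3 fell at both times also after centring and after rescaling without mitochondrially encoded genes. The 72 h fall of EDEM3 depended on single libraries, as given above. SSR1, a translocon-associated subunit, was at 121 ± 6.13 and 125 ± 6.52 TPM (adjusted p = 0.525) and at 145 ± 4.92 TPM at 72 h, a rise over untreated. After centring it was called higher already at 24 h (0.26, adjusted p = 0.000536). For SEC61B, SSR1, SEC24D and SEC31A the sign of 72 h against 24 h turned after centring, to -0.23, -0.08, -0.11 and -0.13.

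Among the sensors, transcription factors and regulators, 4 of 6 rose and 2 fell at 24 h (66.7% and 33.3%, against 25% and 51.7% of all tested genes). At 72 h, 4 rose and 1 fell (66.7% and 16.7%, against 40.1% and 33%). The median log2 fold changes were 0.86 and 0.95, and after centring 2 fell at 72 h. XBP1 stood at 46.5, 52.9 and 46.8 TPM untreated, 183, 189 and 179 TPM at 24 h, and 219.7, 213 and 216 TPM at 72 h. The rise was 3.76-fold and 4.44-fold between means (log2 fold changes 1.89 ± 0.05 and 2.13 ± 0.05, limma adjusted p = 9.64e-10 and 4.72e-10). Gene-level TPM does not separate the spliced from the unspliced message, so these values say nothing of IRE1 activity. ERN1, which encodes IRE1, stood at 2.33, 2.57 and 2.71 TPM untreated, 10.3, 11.7 and 8.96 TPM at 24 h, and 9.52, 10.1 and 9.58 TPM at 72 h, 4.07-fold and 3.84-fold above the untreated mean. The 24 h and 72 h libraries of ERN1 overlapped, and ERN1 and CREB3L2 were called lower at 72 h than at 24 h after centring and not on the deposited scale.

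ATF6 did not follow XBP1 and ERN1. It stood at 19.8, 21.3 and 20.2 TPM untreated, 14.4, 15.5 and 15.4 TPM at 24 h, and 19.5, 19.5 and 18.6 TPM at 72 h. The 24 h fall passed (log2 fold change -0.41 ± 0.05, limma adjusted p = 4.69e-05), and the 72 h value of -0.09 did not (adjusted p = 0.175) except after centring (-0.17, adjusted p = 0.00724) and after rescaling without mitochondrially encoded genes (-0.17, adjusted p = 0.0128). WFS1, an ER membrane protein known to restrain ATF6, stood at 19.8, 20.3 and 20.7 TPM untreated, 10.1, 9.09 and 8.81 TPM at 24 h, and 14.8, 13.8 and 16.3 TPM at 72 h. All treated libraries were below all untreated ones, 2.17-fold at 24 h and 1.36-fold at 72 h. CREB3L2, a membrane-bound transcription factor related to ATF6, rose from 10.3 ± 0.697 to 13.6 ± 0.592 and 12.8 ± 0.477 TPM. UFM1, a ubiquitin-like modifier attached to ER-bound ribosomes, stood at 21.0, 20.5 and 20.5 TPM untreated, 52.8, 55.3 and 54.7 TPM at 24 h, and 63.0, 75.5 and 68.6 TPM at 72 h. For XBP1 the sign of 72 h against 24 h turned after centring (0.24 to -0.07).

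Taken by their calls at the 2 times, 21 of the 37 members rose at both, 5 fell at 24 h and rose at 72 h, 4 fell at both, 4 fell at 24 h and were not called at 72 h, 2 rose at 72 h and 1 fell at 72 h without a call at 24 h. The shares of all tested genes with these joint patterns were not computed, so whether any of these counts is unusual cannot be told. The 5 that crossed over were CALR, CRELD2, SEL1L, DERL1 and DERL2. After centring, the 24 h fall still passed for CALR, CRELD2 and SEL1L. The summed level of the 38 members was 5507 ± 87.5 TPM untreated, 6740 ± 198 TPM at 24 h and 8252 ± 94.0 TPM at 72 h. The lectin and disulfide group gave the largest part of that sum (3079 ± 68.2, 3007 ± 122 and 3658 ± 41.2 TPM), and the chaperone group gained most (1222 ± 19.7, 2166 ± 64.0 and 2466 ± 52.4 TPM).

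The other ER genes, listed by pathway but with earlier results of these data known, shared the direction of the members in part. Of all tested genes, 25% rose and 51.7% fell at 24 h, with a median of -0.23. At 72 h, 40.1% rose and 33% fell, with a median of 0.06. Near these shares lay the further ERAD genes at 24 h (31% up, 44.8% down) and the translocon list at 72 h (48.4% up, 25.8% down). Of 29 further ERAD genes tested, 9 rose and 13 fell at 24 h and 17 rose and 5 fell at 72 h, with medians of -0.04 and 0.24. SELENOS, which recruits the extracting ATPase to the ER, went from 37.5 ± 0.273 to 67.6 ± 1.72 and 116 ± 2.12 TPM, and ERLIN1, of a complex that degrades IP3 receptors, fell from 63.6 ± 4.63 to 28.4 ± 0.455 and 36.9 ± 2.14 TPM. Of 35 further folding and redox genes, 14 rose and 12 fell at 24 h and 19 rose and 8 fell at 72 h. KDELR3, a receptor that returns chaperones to the ER, rose from 53.0 ± 2.59 to 87.0 ± 2.68 and 148 ± 2.43 TPM, while the thioredoxin-like gene TXNDC5 fell from 190.3 ± 4.47 to 96.3 ± 1.93 and 135 ± 1.56 TPM. Of 31 genes of the translocon, signal peptidase, signal recognition particle and oligosaccharyltransferase, 13 rose and 12 fell at 24 h and 15 rose and 8 fell at 72 h, with medians of 0.09 and 0.13. Of 18 further COPII genes, 7 rose and 6 fell at 24 h and 9 rose and 1 fell at 72 h. Among them MIA3 rose from 26.4 ± 1.44 to 43.4 ± 0.890 TPM at 24 h, and SEC23A fell from 79.3 ± 8.36 to 52.6 ± 0.223 TPM. The splits of these lists move with the scale: after centring, 15 ERAD genes rose and 4 fell at 24 h and 15 rose and 9 fell at 72 h. For the folding and redox genes the centred counts were 20 up and 10 down and 19 up and 10 down, for the translocon list 16 up and 7 down and 14 up and 8 down, and for COPII 10 up and 5 down and 9 up and 2 down. Over the 13753 tested genes the centred counts were 4954 up and 5128 down at 24 h and 4790 up and 5347 down at 72 h.

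EIF2AK3, the gene of the third sensor, rose, and so did the stress genes DDIT3 and PPP1R15A. Whether PERK raised DDIT3 and PPP1R15A was not tested. Of 11 tested genes for sensors, proteases and transcription factors, 6 rose and 4 fell at 24 h and 8 rose and 0 fell at 72 h. The medians were 0.66 and 1.08. For this list and those below, the shares of all tested genes were 25% up and 51.7% down at 24 h. They were 40.1% up and 33% down at 72 h. EIF2AK3, which encodes PERK, went from 7.12 ± 0.281 to 12.9 ± 1.37 and 26.5 ± 0.716 TPM, and DDIT3, which encodes CHOP, from 26.8 ± 0.829 to 673 ± 34.0 and 481 ± 15.9 TPM. PPP1R15A, which encodes GADD34, the phosphatase subunit for eIF2, went from 39.5 ± 2.15 to 822 ± 11.8 and 709 ± 10.7 TPM. Between means, DDIT3 rose 25.1-fold and PPP1R15A 20.8-fold at 24 h, where the largest rise of a member was 4.53-fold. Of 7 genes for UFM1 conjugation, 3 rose and 1 fell at 24 h and 6 rose and 0 fell at 72 h, among them DDRGK1, which anchors the ligase at the ER (43.5 ± 2.21, 96.0 ± 2.79 and 90.0 ± 5.17 TPM), and CDK5RAP3, a ligase subunit (136 ± 2.23, 175 ± 6.84 and 304 ± 3.28 TPM). Of 6 ER-phagy receptors, which target ER to lysosomes, 2 rose and 2 fell at 24 h and 5 rose and 1 fell at 72 h, with CCPG1 at 12.8 ± 1.07, 34.9 ± 1.16 and 55.9 ± 3.14 TPM. After centring, the counts at 24 h were 7 up and 2 down for the sensor list, 6 up and 0 down for UFM1 conjugation, and 3 up and 1 down for the ER-phagy receptors.

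Chaperones outside the ER were counted as a contrast, and most of them fell at 72 h. Of 22 cytosolic and mitochondrial chaperone genes, 4 rose and 13 fell at 24 h (59.1% fell, against 51.7% of all tested genes), and 1 rose and 18 fell at 72 h (81.8% against 33%), with medians of -0.37 and -0.54. After centring the counts were 6 up and 10 down and 1 up and 19 down. HSPE1, the mitochondrial co-chaperonin, went from 776 ± 31.2 to 288 ± 26.8 and 295 ± 24.7 TPM, and HSP90AA1, the inducible cytosolic HSP90, from 1582 ± 43.0 to 1096 ± 47.1 and 669.99 ± 32.5 TPM. HSPA9, the mitochondrial HSP70, was the one gene called higher at 72 h, at 423 ± 13.6, 769 ± 0.934 and 627 ± 34.3 TPM. The difference between this list and the members was not tested.

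**Figure D4:**
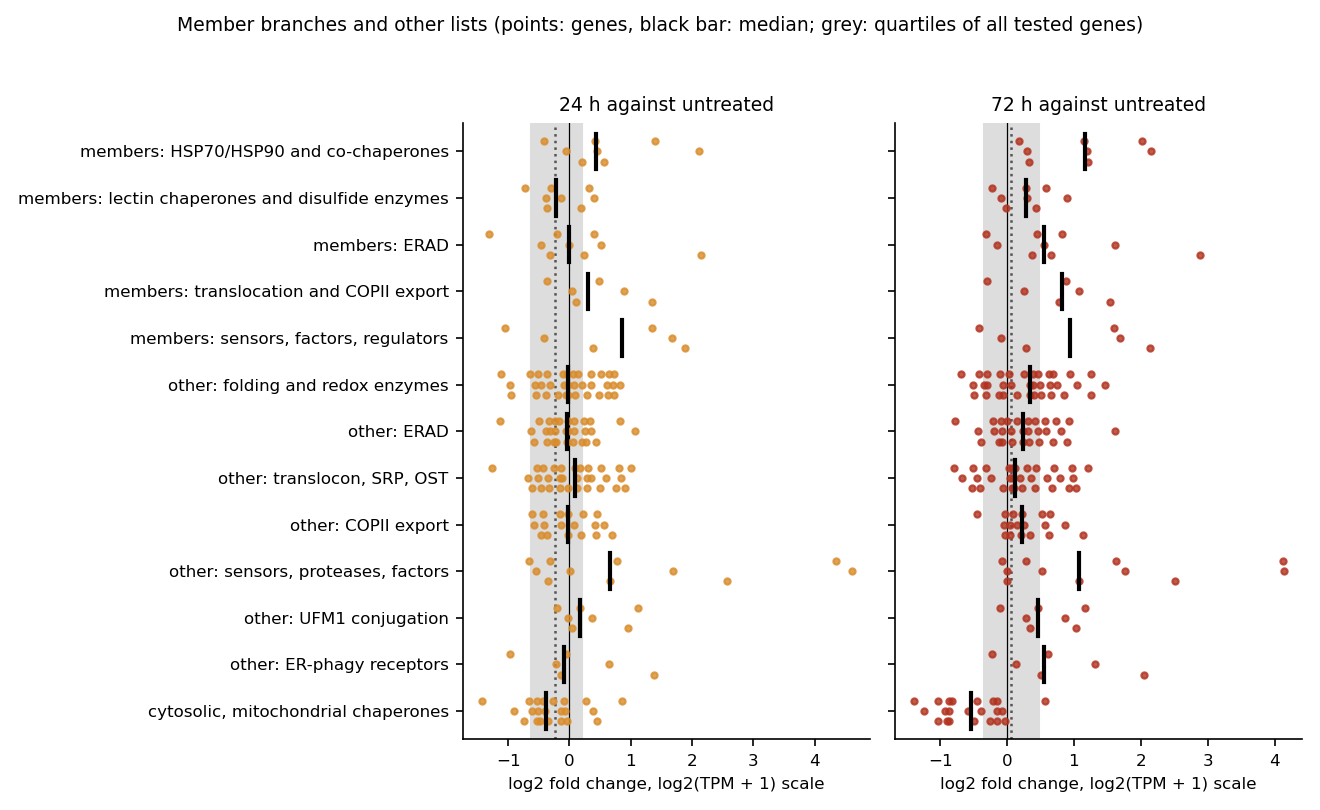
Log2 fold change against untreated on the log2(TPM + 1) scale (x axes) at 24 h and 72 h for the genes of each list (y axis; points), with the list's median (black bar), and the quartiles and median of all tested genes (grey band and dotted line). The 8 chaperones of the first row have medians of 0.44 and 1.17, and the cytosolic and mitochondrial chaperones of the last row -0.37 and -0.54.

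At the chromatin level, nearly every member had at least 1 start under a listed peak in every condition. A listed ATAC peak overlapped the promoter in 3 of 3 libraries for 34 of 34 members untreated, 34 at 24 h and 33 at 72 h, and an H3K4me3 peak for 34 untreated and 34 with THC. Over all 27195 genes with a promoter the shares were 43.4%, 40.7%, 33.9%, 44.4% and 44.8%. These shares take in many genes below the RNA level for testing, which 13753 genes reached, among them 37 of the 38 members. The shares over tested genes alone were not computed, so members and other expressed genes cannot be compared here. With peaks of −log10 q of at least 5 alone, the ATAC counts were 33 untreated, 33 at 24 h and 23 at 72 h, where the shares of all genes were 33.8%, 26.6% and 11.3%. The one member without a peak in 3 of 3 libraries was CRELD2, with no peak in 72 h replicate 2, the ATAC list with the fewest peaks (38495, against 51017 to 150884 in the others); without that library the count was 34. Of the 45 member promoters, 3 had no ATAC peak in any library, an alternative start each of CREB3L2, PDIA4 and SEC61A1, and 3 had no H3K4me3 peak, an alternative start each of CREB3L2, PDIA4 and PDIA6. A promoter was called gained or lost where all 3 libraries of one group and none of the other listed a peak. No member promoter was gained or lost, against 0.02% gained and 0.229% lost for ATAC at 24 h, 0.02% and 0.518% at 72 h, and 0.137% and 0.02% for H3K4me3. Of 14 ERSE and ERSE-II sites at 12 members, 12 lay fully under a listed ATAC peak in 9 of 9 libraries and 14 under an H3K4me3 peak in 6 of 6. The composite element of HERPUD1 lay under a peak in 9 of 9 and 6 of 6 libraries, and that of CREB3L2, at its start without peaks, in 0 of either.

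The peaks at the most changed promoters were present before treatment. At HSPA5 the ATAC peak was 982, 437 and 589 bases long untreated, 445, 568 and 735 at 24 h, and 1148, 395 and 1296 at 72 h, with overlapping groups. The authors' fold enrichment of that peak was 8.37, 11.3 and 9.97 untreated, 9.27, 9.38 and 10.5 at 24 h, and 6.35, 5.84 and 8.72 at 72 h. The H3K4me3 peak at HSPA5 was 4980, 4426 and 4617 bases long untreated and 4629, 4529 and 5442 with THC, also overlapping. At HERPUD1 the H3K4me3 peak was 3511, 3354 and 3446 bases long untreated and 3810, 4167 and 4307 with THC, so that all treated peaks were longer. Its authors' fold enrichment was instead lower in every treated library, at 62.9, 69.2 and 63.3 untreated and 48.1, 59.7 and 53.5 with THC. Peak lengths and fold enrichments are values of separately called lists and move with how much was called in each library.

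Over the promoters with a peak in every library of both groups, peaks were compared by length. H3K4me3 peaks were longer with THC, without overlap, at 5 of 42 member promoters (11.9%, against 8.95% of all promoters), which are the single start of HERPUD1 and 4 starts of CANX under 1 peak, and shorter at 1 of 42 (MANF; 3.34% of all). ATAC peaks at 24 h were longer at 0 of 42 (0.785% of all) and shorter at 1 (SEL1L; 5.4%). ATAC peaks at 72 h were longer at 3 of 39 (DNAJB9, ATF6 and WFS1; 2.79% of all) and shorter at 1 (DERL2; 6.25%). At DNAJB9 the lengths were 683, 605 and 642 bases untreated and 1228, 819 and 764 at 72 h, and at ATF6 348, 363 and 378 bases untreated and 713, 501 and 559 at 72 h. The authors' fold enrichment of the DNAJB9 peak was instead lower in every 72 h library. It was 11.3, 10.7 and 12.9 untreated and 5.93, 6.91 and 8.86 at 72 h. At ATF6 and WFS1 the fold enrichments of the groups overlapped. RNA at 72 h was higher for DNAJB9, not called for ATF6 and lower for WFS1. With 3 libraries against 3 an exact permutation test cannot go below p = 0.1, so no test was made.

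**Figure D5:**
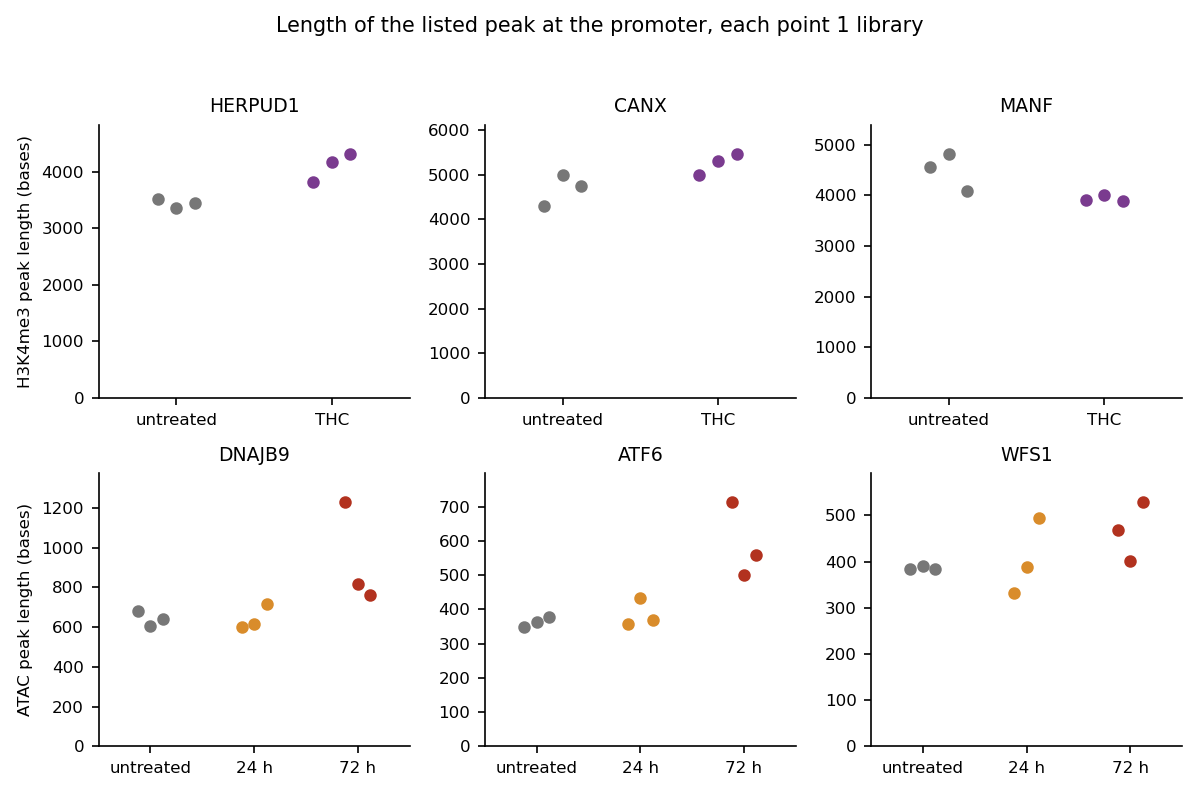
Length in bases (y axis from 0) of the listed peak at 6 member promoters, 1 point per library, by group (x axis): H3K4me3 at HERPUD1, CANX and MANF in the upper row, and ATAC at DNAJB9, ATF6 and WFS1 in the lower row. The 72 h ATAC points of DNAJB9 (764 to 1228 bases) lie above the untreated ones (605 to 683 bases).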

How the data were processed

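The expression table and the ATAC and H3K4me3 peak lists of HEC-1A cells were used as deposited; an IgG control library was not analysed here. The RNA table holds TPM per gene, and the deposited TPM have the same sum in each library and keep no depth, so counting error is unknown. MACS2 2.2.7.1, MACS3, Picard, SAMtools, Bowtie2, Salmon, FastQC, Trim Galore and GRCh38 are named, per the submitters' processing notes, without roles. The deposited ATAC and H3K4me3 peak lists, 1 per library, give each peak a score, a fold enrichment ratio, and −log10 p and q values from the authors' peak caller. Which caller made which list, read shifting, duplicate removal, the threshold and the annotation release were not given in the sources used here.

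Symbols were matched by Ensembl identifier (59918 of 60179). limma 3.58.1 in R 4.3.3 was fitted with a mean-variance trend on log2(TPM + 1) of all 9 RNA libraries for the 13753 genes whose mean TPM reached 1, with Benjamini-Hochberg adjustment over all of them and a threshold of 0.05. A log2 fold change is a difference of log2(TPM + 1) and understates the change of low genes; folds between means are plain TPM ratios. The fit was checked on simulated data. Promoters are the RefSeq windows of 250 bases before to 50 after a start, none given for DERL3, PDIA3, DERL1 and SEC24D; peaks count where they overlap the window by 1 base. Motifs were exact matches on both strands. Python 3.11.15, pandas 2.3.3, numpy 2.4.6 and matplotlib 3.10.9 were used. All 38 members are described; from the other lists, up to 3 called genes per comparison with the largest change and a mean TPM of at least 5 could be named, and HSP90AA1, HSPE1 and HSPA9 fall under the same rule. Alternatives were another pseudocount, other filters, centring, rescaling, no trend, only the groups compared, a replicate block and each library left out. Members and lists were chosen with earlier results of these data known.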

Additional observations from a re-analysis of the deposited data

Results flagged for a closer look

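Effects that differ between the 2 treatment times are given here: the direct contrast of 72 h minus 24 h on the log2(TPM + 1) scale passed (limma adjusted p under 0.05) for 29 of the 37 tested members. The sign was positive for 28 and negative for 1. Of all tested genes, 54.9% passed with a positive and 17.8% with a negative sign, so passing was common and not particular to the members. For 5 of them the calls against untreated had opposite directions at the 2 times: CRELD2 (a difference of 1.15), SEL1L (0.91), DERL1 (0.87), CALR (0.69) and DERL2 (0.56). Other ERAD genes differed by 1.10 (SYVN1), 1.00 (EDEM3), 0.74 (HERPUD1), 0.59 (OS9), 0.26 (EDEM1) and -0.15 (EDEM2). Chaperones and co-chaperones differed by 0.77 (HYOU1), 0.76 (DNAJB9), 0.70 (DNAJC3), 0.66 (MANF), 0.60 (SDF2L1) and 0.38 (DNAJB11). Disulfide enzymes differed by 0.50 (ERO1B), 0.28 (PDIA4), 0.26 (P4HB) and 0.14 (PDIA6). Translocation and export genes differed by 0.66 (SEC61A1), 0.39 (SERP1), 0.22 (SSR1) and 0.17 (SEC31A). Sensors and regulators differed by 0.62 (WFS1), 0.34 (UFM1), 0.33 (ATF6) and 0.24 (XBP1). Over all tested genes the median difference was 0.26. After centring, the differences of PDIA4, PDIA6, P4HB, EDEM1, SSR1, SEC31A and XBP1 turned negative.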

How the results depend on the processing

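Centring each library on its median had the widest effect. Members lower at 72 h numbered 8 in place of 5 after centring and 8 after rescaling without mitochondrially encoded genes. Members higher at 72 h than at 24 h numbered 16 in place of 28 after centring, and members lower 9 after centring and 2 after rescaling in place of 1. With 1 library left out, members lower at 72 h numbered 3 to 5 (3 without untreated replicate 1, untreated replicate 2 or 72 h replicate 3), and members lower at 72 h than at 24 h 0 to 1 (0 without replicate 2 or 3 of either treated group). At 24 h, centring turned the sign of DNAJB11 (0.17), PDIA3 (0.075), EDEM2 (0.22) and DERL2 (0.023), and rescaling that of SSR1 (-0.023). For 72 h against 24 h, centring turned the sign of HSP90B1 (-0.21), CANX (-0.22), PDIA3 (-0.25), PDIA4 (-0.028), PDIA6 (-0.16), P4HB (-0.041), EDEM1 (-0.045), SEC61B (-0.23), SSR1 (-0.083), SEC24D (-0.11), SEC31A (-0.13) and XBP1 (-0.068). With 1 library left out, the 24 h value of EDEM2 ranged from -0.035 to 0.026 and was positive in 4 of the fits. PDIA4 at 72 h ranged from -0.045 to 0.018 (without untreated replicate 2), and ERN1 for 72 h against 24 h turned to 0.015 without 24 h replicate 2. The cause was not tested. Over 37 members, 3 comparisons and all alternatives, 1810 values kept direction and call, 25 gained and 29 lost the call, and 23 turned sign.

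The replicate numbers gave no clear sign of pairing. The 9 same-number pairs correlated at -0.199 to 0.252 in their deviations from the group means, and 2 exceeded 0.1. Pairs of different number ranged from -0.235 to 0.219. With 3 libraries per group these correlations cannot exclude pairing. With the replicate block the 37 members had 21 higher and 13 lower at 24 h, and the calls gained were SDF2L1 at 72 h (adjusted p = 0.025) and SEC24D for 72 h against 24 h (adjusted p = 0.0489). Depth is unknown for the RNA values, and the ATAC lists range from 38495 to 150884 peaks, which limits comparisons of peak presence and length. With listed −log10 q values of at least 5, the members with an ATAC peak in 3 of 3 libraries numbered 33, 33 and 23 in untreated, 24 h and 72 h libraries, against 33.8%, 26.6% and 11.3% of all genes. The ATAC count at 72 h without replicate 2, chosen after seeing the data, was 34.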
